A study of Mus musculus with 2 samples.

Results

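The genes described here are 48 mouse genes of microbial sensing and NF-κB signalling, taken by symbol from a list. It holds Toll-like receptors (TLRs) and their co-receptors, cytosolic sensors, adaptors, kinases, ubiquitin ligases, NF-κB subunits, the IκB family and other inhibitors. All 48 were found among the 23358 genes listed for mouse ileum, where the small intestine ends. RNA was sequenced from group E and group D. Group E were BALB/c mice, 21 days old, that received 0.1 ml of saline into the peritoneum, 0.2 ml of castor oil by mouth and, 0.5 h later, 0.3 ml of ellagic acid (EA, a plant polyphenol) at 10 mg/ml by mouth, daily for 3 days. Group D received the same saline injection and castor oil, followed by 0.3 ml of saline in place of EA. Castor oil was thus common to both groups, and mice without it were not sequenced, so the values compare EA with saline in mice given castor oil and do not show what castor oil itself changed. Sequencing covered 2 libraries per group, but each gene has only 1 deposited value for each group. It is given in FPKM, fragments per kilobase of transcript scaled to the number of fragments mapped. There is therefore no SD and no test for any difference below, and the number of reads behind each gene's value is unknown.

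TLRs bind microbial lipids, proteins and nucleic acids at the cell surface or in endosomes, and NOD-like receptors do so in the cytosol. Most TLRs signal through the adaptor Myd88 to the IRAK kinases, the ligase Traf6 and the kinase Map3k7 (TAK1), which activate the IKK complex. IKK marks the IκB inhibitors for destruction, and NF-κB dimers then enter the nucleus and induce cytokines, adhesion molecules and several of their own inhibitors. In the gut this pathway is known for keeping watch over the microbiota, and in the epithelium it is held in check by low receptor levels and by those inhibitors. NF-κB is controlled largely at the protein level, which mRNA does not report.

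Of the 48 genes, 1 differed by at least 2-fold between the groups: Nfkb1, the gene of an NF-κB subunit, was at 12.8 FPKM in group E, against 29.0 FPKM in group D. No gene was at least 2-fold higher in group E. At a 1.5-fold limit the lower genes were Nfkb1, Relb, Tlr7 and Naip5, and again none was higher. These counts cover the 46 genes with at least 1 FPKM in one group, which leaves out Nlrp3 and Ticam2. Over all 12957 genes under the same filter, 3.5% differed by at least 2-fold, 1.77% being higher and 1.74% lower in group E, and 11.3% differed by at least 1.5-fold, 5.37% being higher and 5.9% lower. The 4 of 46 lower genes at 1.5-fold are 8.7%, a share near that background. Their median log2 of E over D was -0.10, with 18 genes above 0 and 28 below, beside a median of 0.01 over all genes. Scaling to the summed FPKM, here and below taken without genes over 10000 FPKM, lowers every log2 value by 0.11. This takes 7 members that lay slightly above 0 to below it. With every gene included the sum was 589890 FPKM in group E and 459683 FPKM in group D, and scaling to it was not run. The middle part of the members, between the quartiles, ran from -0.28 to 0.09, and that of all genes from -0.20 to 0.21. In all, 31 of the 46 genes (67.4%) lay within 1.2-fold, as did 60.4% of all genes.

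**Figure D1:**
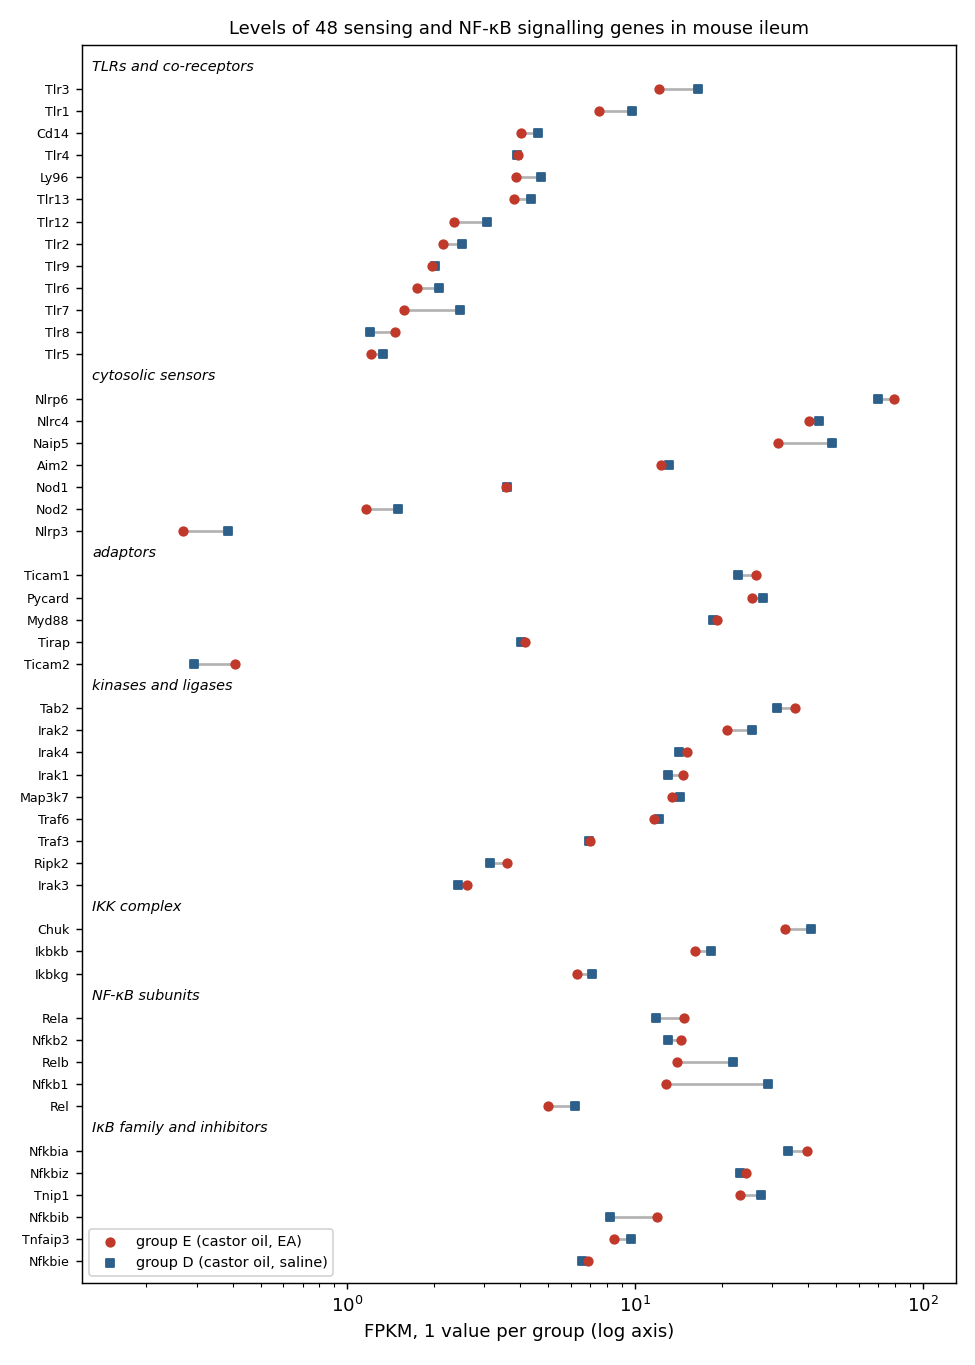
FPKM of the 48 genes in group E (circles) and group D (squares) on a log axis, grouped by role and ordered by level in group E; each point is 1 value per group. Nlrp6 is highest in both groups, Nfkb1 shows the widest gap, and most pairs nearly touch.

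The genes spanned a wide range of levels, and their order was nearly kept between the groups. Pearson's r of the log2 levels over the 48 genes was 0.98, a description across genes in which both values share the gene's length and the same tissue. The median level was 10.03 FPKM in group E and 9.73 FPKM in group D. In both groups 11 genes exceeded 20 FPKM, and 18 genes stayed under 5 FPKM in both. FPKM is scaled to transcript length, so these levels can be set side by side across genes. The TLRs and their co-receptors made up 11 of these 18 low genes, whereas a few cytosolic sensors, the adaptor Ticam1, the inhibitor Nfkbia and the kinase Chuk were among the highest.

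Among the TLRs, none differed by 2-fold between the groups, and 9 of the 11 were below 0 on the log2 scale of E over D (10 where scaling to the upper quartile, the summed FPKM or Actb turns Tlr4). Tlr3, the endosomal sensor of double-stranded RNA, was the most abundant, at 12.1 FPKM in group E and 16.5 FPKM in group D. Next came Tlr1, which pairs with Tlr2 to bind triacylated lipopeptides, at 7.52 FPKM in group E and 9.79 FPKM in group D. Tlr7, the endosomal sensor of single-stranded RNA, was at 1.58 FPKM in group E and 2.47 FPKM in group D, a log2 difference of -0.65. This was the widest gap of the family, and 4.87% of all genes were at least as far below. Its neighbour on the X chromosome, Tlr8, was listed at 1.47 FPKM in group E and 1.203 FPKM in group D, on the other side of 0.

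The remaining receptors were low in both groups. Tlr4, the receptor of bacterial lipopolysaccharide, was at 3.92 FPKM in group E and 3.89 FPKM in group D, a log2 difference of 0.01. Its co-receptors were also low, Cd14 at 4.01 FPKM in group E and 4.60 FPKM in group D. Ly96, which binds the lipid part of lipopolysaccharide, was at 3.87 FPKM in group E and 4.71 FPKM in group D. The receptor for lipopolysaccharide and both of its partners thus lay in a narrow range of levels. Tlr2, which recognises lipoproteins, was at 2.15 FPKM in group E and 2.50 FPKM in group D. Tlr5, the receptor of flagellin, was at 1.21 FPKM in group E and 1.34 FPKM in group D. Tlr6, the other partner of Tlr2 and a close relative of Tlr1 beside it on chromosome 5, was at 1.75 FPKM in group E and 2.08 FPKM in group D. Reads shared between Tlr1 and Tlr6 could have been split by the authors' counting. Tlr9, which senses unmethylated CpG DNA, was at 1.98 FPKM in group E and 2.03 FPKM in group D. Tlr13, a mouse receptor of bacterial ribosomal RNA, was at 3.80 FPKM in group E and 4.36 FPKM in group D. Tlr12, which takes part in sensing of a profilin from Toxoplasma, was at 2.36 FPKM in group E and 3.05 FPKM in group D. Summed over the 11 receptors, the level was 39.8 FPKM in group E and 49.2 FPKM in group D, and the median log2 difference was -0.22. Over all genes 49.1% were below 0.

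The cytosolic sensors held the most abundant gene of all 48, Nlrp6, a NOD-like receptor known from intestinal epithelium. It was at 79.5 FPKM in group E and 69.8 FPKM in group D, a log2 difference of 0.19. Nlrc4, which assembles the inflammasome that answers flagellin, was at 40.4 FPKM in group E and 43.6 FPKM in group D. Naip5, which binds flagellin and hands the signal to Nlrc4, was at 31.5 FPKM in group E and 48.3 FPKM in group D, a log2 difference of -0.62. The ratio of Naip5 to Nlrc4 was 0.779 in group E and 1.11 in group D. Naip5 belongs to a family of near-identical neighbours, among which reads may be shared, so its value is uncertain. The other family members on the list of further sensors were closer between the groups: Naip1 had 62.4 FPKM in group E and 67.8 FPKM in group D. Naip2 had 26.6 FPKM in group E and 29.6 FPKM in group D. Naip6 had 31.0 FPKM in group E and 37.5 FPKM in group D. All 4 Naip genes were listed as lower in group E, by log2 differences of -0.12 to -0.62.

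The other cytosolic sensors were lower in abundance. Aim2, which senses double-stranded DNA, was at 12.3 FPKM in group E and 13.2 FPKM in group D. Nod1 and Nod2 detect fragments of bacterial peptidoglycan. Nod1 was at 3.55 FPKM in group E and 3.59 FPKM in group D, and Nod2, known from Paneth cells and phagocytes, was at 1.17 FPKM in group E and 1.497 FPKM in group D. Nlrp3, the inflammasome sensor of myeloid cells, was at only 0.270 FPKM in group E and 0.385 FPKM in group D, too low for a difference to be read. Pycard (ASC), the adaptor that joins sensors such as Aim2 and Nlrp3 to caspase-1, was at 25.6 FPKM in group E and 27.9 FPKM in group D.

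The adaptors and the kinases and ligases below the receptors were the roles with the smallest differences. Myd88 was at 19.3 FPKM in group E and 18.7 FPKM in group D, a log2 difference of 0.05. Ticam1 (TRIF), the adaptor of Tlr3 and of endosomal Tlr4, was at 26.4 FPKM in group E and 22.8 FPKM in group D. Tirap, which brings Myd88 to the membrane, was at 4.14 FPKM in group E and 4.02 FPKM in group D. Ticam2, which links Tlr4 to Ticam1, was at 0.408 FPKM in group E and 0.294 FPKM in group D and was left out of the counts.

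Among the kinases, Irak4, which starts the cascade, was at 15.2 FPKM in group E and 14.3 FPKM in group D. Its substrate Irak1 was at 14.7 FPKM in group E and 13.0 FPKM in group D. Irak2, which sustains the signal, was at 20.9 FPKM in group E and 25.6 FPKM in group D, the widest gap of this role at a log2 difference of -0.29. Irak3, an inhibitory member known from macrophages, was at 2.61 FPKM in group E and 2.42 FPKM in group D. Ripk2, the kinase of Nod1 and Nod2, was at 3.59 FPKM in group E and 3.14 FPKM in group D. The ubiquitin ligase Traf6 was at 11.6 FPKM in group E and 12.2 FPKM in group D, and Traf3, which steers the signal to interferon genes, at 6.97 FPKM in group E and 6.93 FPKM in group D. Map3k7 was at 13.4 FPKM in group E and 14.4 FPKM in group D, and its partner Tab2, which binds ubiquitin chains, at 35.9 FPKM in group E and 31.3 FPKM in group D. The 9 kinases and ligases had a median log2 difference of 0.09, from -0.29 to 0.20, and the 4 adaptors that passed the filter one of 0.05. Scaled to the summed FPKM these medians were -0.02 and -0.06.

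**Figure D2:**
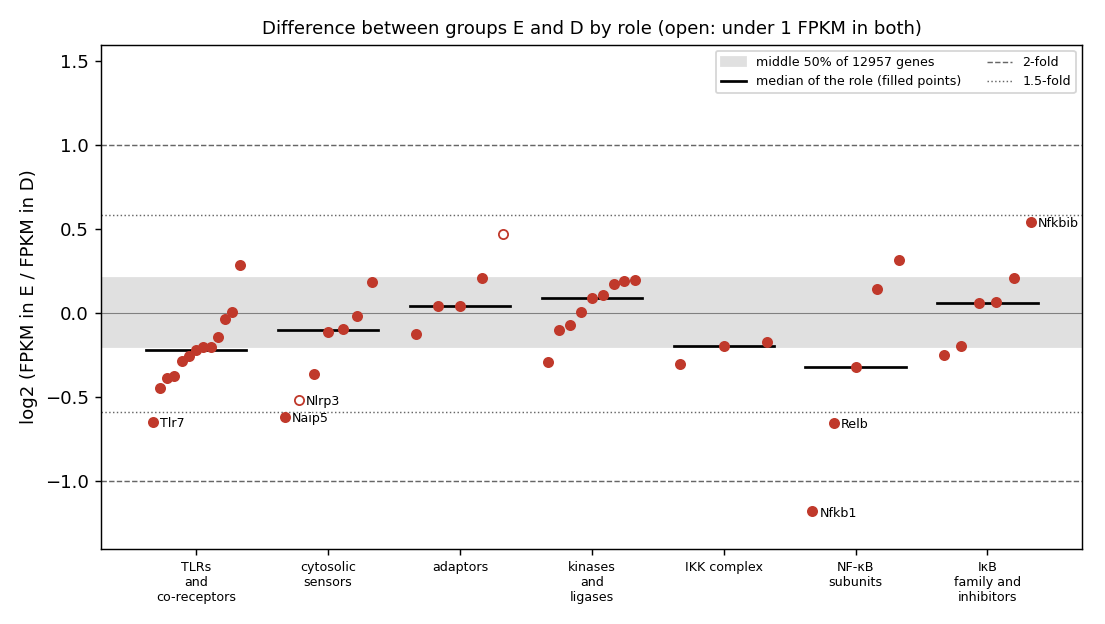
Log2 of FPKM in E over FPKM in D for each of the 48 genes by role, with the median of each role (black lines, genes with at least 1 FPKM in one group) and the middle 50% of 12957 genes (grey band). Only Nfkb1 lies beyond the dashed 2-fold lines; Relb, Tlr7 and Naip5 lie beyond the dotted 1.5-fold line below 0, and no gene lies beyond it above 0.

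The 3 genes of the IKK complex were all listed slightly lower in group E. Chuk (IKKα), the kinase of the non-canonical arm, was at 33.3 FPKM in group E and 41.0 FPKM in group D, and Ikbkb (IKKβ), the kinase of the canonical arm, at 16.1 FPKM in group E and 18.4 FPKM in group D. Ikbkg (NEMO), the regulatory subunit, was at 6.30 FPKM in group E and 7.09 FPKM in group D. Their log2 differences ran from -0.30 to -0.17, and 16.6% of all genes lay at least as far below as Chuk.

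The NF-κB subunits differed the most among the roles, and not in 1 direction. Nfkb1, on chromosome 3 from 135584655 to 135691547, encodes a precursor that is cut to a DNA-binding subunit of the canonical dimer. It was at 12.8 FPKM in group E and 29.0 FPKM in group D, a log2 difference of -1.18, and 146 of the 12957 genes (1.13%) were at least as far below. Rela, the activating partner in that dimer, went the other way, at 14.8 FPKM in group E and 11.9 FPKM in group D, a log2 difference of 0.32. The ratio of Nfkb1 to Rela was therefore 0.867 in group E and 2.44 in group D. Relb, the activating subunit of the non-canonical dimer, was at 13.95 FPKM in group E and 21.9 FPKM in group D, a log2 difference of -0.65. Its partner Nfkb2 was at 14.4 FPKM in group E and 13.0 FPKM in group D, so that Relb over Nfkb2 was 0.969 in group E and 1.68 in group D. Rel, the subunit best known from lymphocytes, was at 4.98 FPKM in group E and 6.20 FPKM in group D. Among the 5 subunits, Nfkb1 was the highest in group D, but in group E it was below Rela, Nfkb2 and Relb, with all 4 close together. Without Nfkb1 the median log2 difference of the subunits was -0.09, against -0.32 with it, and none of the other 4 reached 2-fold.

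**Figure D3:**
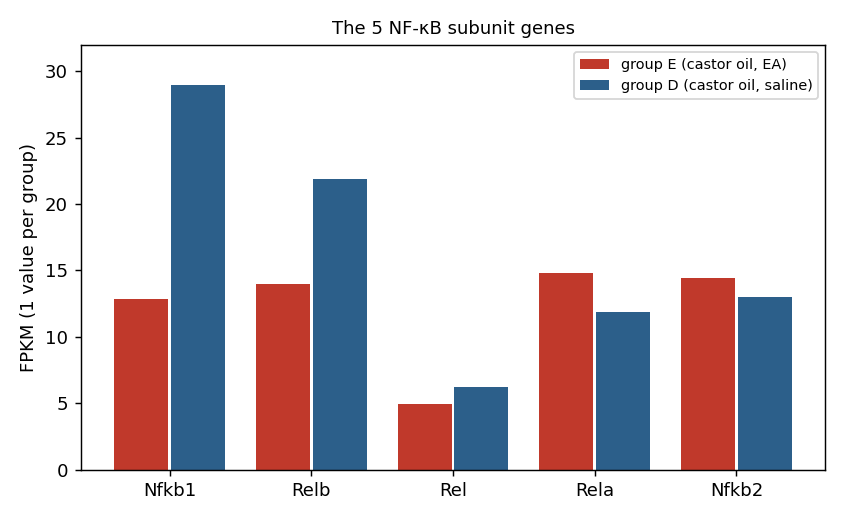
FPKM of the 5 NF-κB subunit genes in group E (left bars) and group D (right bars), 1 value per group and no error bars because the values are not replicated. Nfkb1 and Relb are visibly lower in group E, whereas Rela and Nfkb2 are slightly higher.

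The row of Nfkb1 stands apart in the deposited table in a further way. The table also holds a P-value from the authors' own comparison, which is not used as a result here. In 9 of 14185 tested rows this P-value is no multiple of the step of 5e-05 that the other tested rows keep to, and Nfkb1 is the only member among the 9. All 48 members, Nfkb1 included, were listed at a position that overlaps the same gene in the GRCm38.p6 annotation. A row named Tnfa, by contrast, was listed on chromosome 9 from 54025606 to 54068411, where that annotation places Tnfaip8l3, and it was not taken as Tnf. Rows named Sod1, Sod3 and Gpx1 were likewise listed at the positions of Sod3, Sod1 and Gpx3, and the rows named Tnfa and Sod1 are among the 9. Whether the values of the Nfkb1 row were affected by how the table was made was not tested. With 1 value per group, the direction of Nfkb1 has no replicate check in the deposited values. The authors report NF-κB as lower in group E by qRT-PCR too, without naming the subunit gene. Their RNA-seq log2 value for NF-κB is further below 0 than the -1.18 of this row.

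The inhibitors of NF-κB, like the subunits, lay on both sides of 0. Nfkbia (IκBα), the main inhibitor and a well-known target of NF-κB itself, was at 39.5 FPKM in group E and 34.1 FPKM in group D, a log2 difference of 0.21. Nfkbib (IκBβ) was at 11.9 FPKM in group E and 8.16 FPKM in group D, the largest difference above 0 of the 46 genes, at 0.55 on the log2 scale, which is short of 1.5-fold. Of all genes, 6.12% were at least as far above. Nfkbie (IκBε) was at 6.86 FPKM in group E and 6.55 FPKM in group D. Nfkbiz, a nuclear IκB protein that switches on secondary response genes, was at 24.2 FPKM in group E and 23.2 FPKM in group D. Tnfaip3 (A20), which edits ubiquitin chains to end the signal, was at 8.45 FPKM in group E and 9.66 FPKM in group D. Tnip1, which binds A20, was at 23.1 FPKM in group E and 27.4 FPKM in group D. The 6 genes of this role, in which Nfkbiz is counted as a member of the IκB family, had a median log2 difference of 0.07. Of them 4 were above 0 and 2 below, and their median was -0.04 when scaled to the summed FPKM. Nfkbia, Nfkbib, Nfkb2, Ikbkg and Irak1 were listed in regions merged with other genes, Nfkbia with Psma6, Ppp2r3c and further genes, and how reads were divided within such a region is not known.

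Because several genes of this pathway are themselves induced by NF-κB, their promoters were searched for letters bound by it. RefSeq promoter sequences (GRCm38.p6, 250 bases before to 50 bases after a gene's start) were found for 38 of the 48 genes, and Nfkb1 was not among them. The letters GGG, any 2 bases and TTTCC were searched as 1 motif on both strands, a spelling chosen from 3 that were tried with the values known. It was found in 7 of the 38 genes, Map3k7, Nfkb2, Nfkbia, Rel, Tlr3, Tnfaip3 and Traf3, and in 1.89% of the 27025 genes with a promoter in the table. A match describes the letters only. The 60 bases around each match are shown on the strand of the gene to let the sites be compared, with the match in capitals, which reads as the reverse complement of the motif where it begins with GGAAA.
Nfkbia, chr12:55492642-55492701, minus strand: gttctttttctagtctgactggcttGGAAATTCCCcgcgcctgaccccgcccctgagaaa
Nfkb2, chr19:46304701-46304760, plus strand, first start: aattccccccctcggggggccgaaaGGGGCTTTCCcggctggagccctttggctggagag
Nfkb2, chr19:46305680-46305739, plus strand, second start: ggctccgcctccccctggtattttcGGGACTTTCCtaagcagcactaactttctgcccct
Rel, chr11:23771026-23771085, minus strand: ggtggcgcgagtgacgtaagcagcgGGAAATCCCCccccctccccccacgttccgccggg
Tnfaip3, chr10:19015388-19015447, minus strand: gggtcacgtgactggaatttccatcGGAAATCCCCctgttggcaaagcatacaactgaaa
Tlr3, chr8:45410557-45410616, minus strand: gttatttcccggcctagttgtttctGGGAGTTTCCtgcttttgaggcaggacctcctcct
Traf3, chr12:111166335-111166394, plus strand: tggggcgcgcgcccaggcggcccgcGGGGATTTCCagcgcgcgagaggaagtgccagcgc
Map3k7, chr4:31963990-31964049, plus strand: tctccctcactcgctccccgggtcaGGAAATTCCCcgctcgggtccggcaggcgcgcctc
None of these 7 genes reached 1.5-fold. Their log2 differences of E over D ran from -0.45 for Tlr3 to 0.21 for Nfkbia.

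Genes of the pathway beyond the 48 came from 2 further lists. Of 29 further sensors, 22 passed the filter, none was 2-fold higher and 2 were 2-fold lower in group E. These were Cd180, a TLR-like receptor of B cells, at 1.36 FPKM in group E and 3.86 FPKM in group D, and Nlrc3, an inhibitory NOD-like receptor, at 0.685 FPKM in group E and 1.496 FPKM in group D. At 1.5-fold, 5 of the 22 (22.7%) were lower and none was higher, beside 5.9% lower and 5.37% higher over all genes. Their median was -0.16, with 18 (81.8%) below 0, beside 49.1% of all genes. Of 49 further signalling genes, 45 passed the filter, and none was 2-fold different in either direction, while 1 was 1.5-fold higher and 1 was 1.5-fold lower. The most abundant of them were Casp1, the caspase of the inflammasome, at 86.3 FPKM in group E and 93.3 FPKM in group D, and Irf7, a transcription factor of the interferon response, at 87.0 FPKM in group E and 89.8 FPKM in group D. Their median was -0.05. In the KEGG annotation that the authors deposited with each gene, 40 of the 48 genes fell in the Toll-like receptor, NOD-like receptor or NF-κB signalling pathways. Of 222 genes of these 3 pathways that passed the filter, none was 2-fold higher and 3 were 2-fold lower in group E: Nfkb1, the cytokine gene Il1b and Tnfrsf13c, a receptor of B cells. Over all genes, 1.77% were 2-fold higher and 1.74% were 2-fold lower. This KEGG list was added with the data in view.

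Known targets of NF-κB were mostly within 2-fold as well, as were all but 3.5% of all genes. Of 48 target genes, 33 passed the filter, and the 2 that were 2-fold lower in group E were the cytokines Il1a and Il1b. Il1a was at 0.800 FPKM in group E and 1.97 FPKM in group D, and Il1b at 1.42 FPKM in group E and 2.89 FPKM in group D. None was 2-fold higher. Tnf itself, listed at its own position on chromosome 17, was at 0.656 FPKM in group E and 0.667 FPKM in group D. At 1.5-fold, 7 of the 33 target genes (21.2%) were lower and 3 were higher. Over all genes, 5.9% were lower and 5.37% higher at this limit. The median log2 difference of the target genes was -0.20. Those that passed 1.5-fold included Nos2, the inducible nitric oxide synthase, at 34.4 FPKM in group E and 61.1 FPKM in group D. On the other side was the chemokine Ccl5, at 59.9 FPKM in group E and 34.0 FPKM in group D. Nos2 and Ccl5 were named after their values were seen. Most targets were low, and 15 of the 48 did not reach 1 FPKM in either group or were listed at 0 in one of them.

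**Figure D4:**
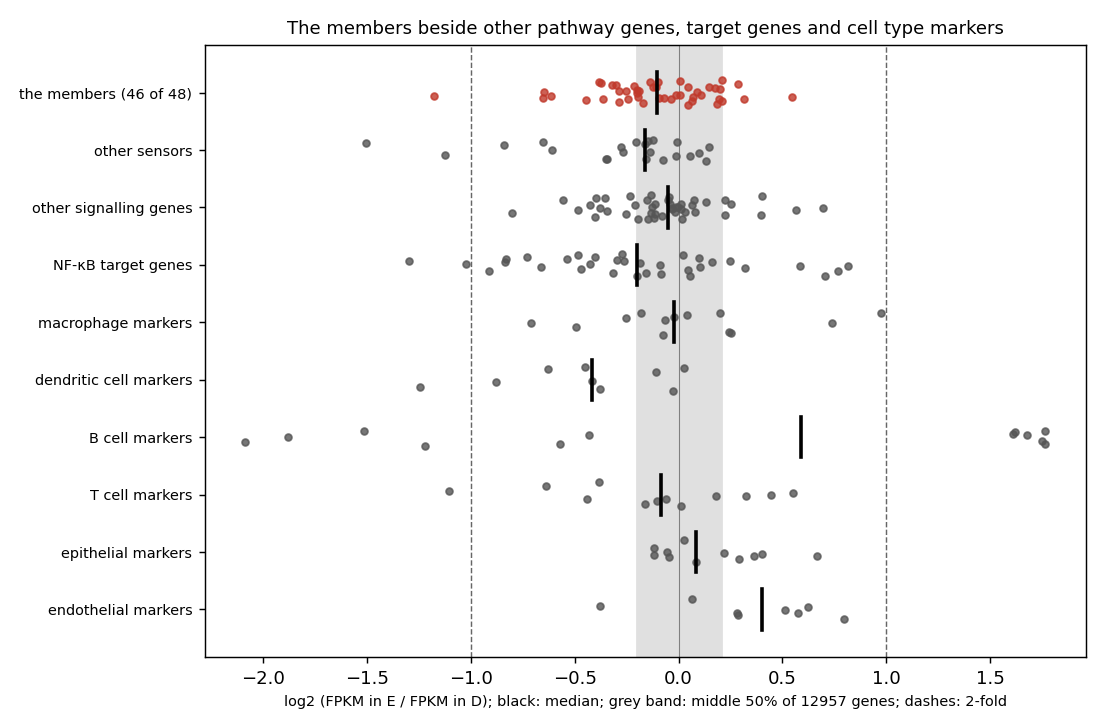
Log2 of FPKM in E over FPKM in D for the genes that passed the filter, for the members, 3 lists of related genes and 6 lists of cell type markers, with medians (black lines), the middle 50% of 12957 genes (grey band) and 2-fold lines (dashes). The members cluster around 0 with a median of -0.10, whereas 10 of 12 B cell markers lie above 1.5 or below -1.

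Several of these sensors are known from immune cells, and in whole tissue fewer cells of a type cannot be told apart from less RNA per cell. Of 13 macrophage markers, none differed by 2-fold, their median was -0.02, and their summed level was 344 FPKM in group E and 372 FPKM in group D. The most abundant of them were Lyz2, a lysozyme gene, at 109 FPKM in group E and 154 FPKM in group D, and the complement gene C1qa at 60.5 FPKM in group E and 58.9 FPKM in group D. Of 9 dendritic cell markers that passed the filter, 8 were below 0 and Batf3 was 2-fold lower, with a median of -0.42 and summed levels of 39.4 FPKM in group E and 52.3 FPKM in group D. Tlr7, Relb and Nod2 lay on the same side as these markers, as did 28 of the 46 members in all. Tlr8 and Irak3 lay above 0. The part of dendritic cells in those values was not tested. Of 12 B cell markers, 6 were 2-fold higher (Ms4a1, Faim3, Cd22, Fcer2a, Blk and Cxcr5) and 4 were 2-fold lower (Pax5, Spib, Cr2 and Cd79b) in group E, so that markers of 1 cell type were listed in opposite directions. Whether the direction of a single row of the table, that of Nfkb1 included, can be relied on was not tested. Ms4a1 (CD20) was at 10.2 FPKM in group E and 3.00 FPKM in group D, whereas Pax5 was at 1.09 FPKM in group E and 4.63 FPKM in group D. The 12 markers summed to 51.8 FPKM in group E and 54.3 FPKM in group D. Of 12 T cell markers, Cd2 was 2-fold lower and none was higher, with a median of -0.08. Only 3 neutrophil markers passed the filter, and they were not on 1 side. Retnlg, the most abundant, was at 6.77 FPKM in group E and 10.4 FPKM in group D, whereas the calcium-binding protein gene S100a8 was at 4.94 FPKM in group E and 1.598 FPKM in group D, and its partner S100a9 at 2.19 FPKM in group E and 0.743 FPKM in group D. The granule genes Camp, Ngp, Elane and Mpo were all at or below 0.231 FPKM in both groups. Endothelial markers had a median of 0.40 and smooth muscle markers one of 0.32, with none of 8 past 2-fold in either list. The most abundant endothelial markers were Pecam1, at 21.4 FPKM in group E and 14.98 FPKM in group D, and Kdr, at 13.99 FPKM in group E and 11.5 FPKM in group D. Of the smooth muscle markers these were Acta2, at 208 FPKM in group E and 155 FPKM in group D, and Actg2, at 124 FPKM in group E and 172 FPKM in group D. Of 7 fat cell markers that passed the filter, Cidec, Plin4, Plin1, Adipoq and Car3 were 2-fold higher and Thrsp and Fabp4 2-fold lower in group E. Cfd, Lep and Retn were listed at 0 in group D. Car3 was at 356 FPKM in group E and 0.031 FPKM in group D, and Cfd at 274 FPKM in group E. Fabp4, by contrast, was at 25.6 FPKM in group E and 536 FPKM in group D, and Thrsp at 0.989 FPKM in group E and 51.0 FPKM in group D. These markers were thus also listed in opposite directions. Epithelial markers, which check for epithelium but not for the part of the gut, summed to 9440 FPKM in group E and 8213 FPKM in group D. Their median was 0.09, with none of 11 past 2-fold. The keratin genes Krt19, at 2467 FPKM in group E and 1555 FPKM in group D, and Krt8, at 1772 FPKM in group E and 1520 FPKM in group D, led this list. Of 12 enterocyte markers, 4 were above 0 and 8 below, with a list median of -0.08. Only Gata4 was past 2-fold, at 11.7 FPKM in group E and 5.43 FPKM in group D. The ileal markers Slc10a2 and Fabp6 were lower in group E. Slc10a2 was at 142 FPKM in group E and 234 FPKM in group D, and Fabp6 at 3846 FPKM in group E and 5698 FPKM in group D. Whether both groups were sampled at the same part of the gut was not tested.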

How the data were processed

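Ileum RNA of groups E and D was sequenced in read pairs, which the authors aligned by TopHat (2.0.12) to a genome indexed by Bowtie (2.2.3). By their methods the authors used DESeq 1.18.0 for their own comparison, although the table has the columns of Cuffdiff. The deposited FPKM hold 1 value for each gene in each group. The genome build, the scaling of FPKM and the way in which 2 libraries became 1 value are not given in the sources used here. Beside them, the deposited table holds the authors' fold change, P-value and q-value, and a second table holds their pathway enrichment. These were not used as results, and the P-value was read only to count rows off its step of 5e-05 (tolerance 1e-04 of a step). FPKM of single rows may not be reliable in this table. Gapdh was listed at 2.98 in group E and 0.120 in group D. Actb, by contrast, was at 4745 in group E and 4630 in group D. The Gapdh value in group D is the same as that listed for Adipoq in group D, 0.120016. Why they match was not tested.

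The log2 of E over D was taken without a pseudocount for genes with both values above 0 and at least 1 FPKM in one group. Genes were called at 2-fold, the study's own limit, and at 1.5-fold. Every member is named. From the other lists, the genes past 2-fold are named, or the 2 most abundant where none is, and a few others were named after their values were seen. Members and lists were chosen with earlier results of these data known. Starts are given with 1 added, since the table counts them from 0. The code that makes the fold counts was tested on simulated data, and the difference between the groups was not tested. Python 3.11.15, numpy 2.4.6, pandas 2.3.3 and matplotlib 3.10.9 were used. One further B cell marker is not reported here.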

Additional observations from a re-analysis of the deposited data

How the results depend on the processing

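No paired analysis was possible because the values are 1 per gene and group. Of the members, the count that was 2-fold lower in group E was 1. It was 4 at a fold of 1.5, and 0 at a fold of 3 and 0 without Nfkb1, the last chosen after seeing the data. The count that was 2-fold higher was 0 under every alternative run for it. The median log2 difference of -0.10 was between -0.21 and -0.09 under the alternatives run. Scaling to the FPKM sum of every gene, 589890 FPKM in group E and 459683 FPKM in group D, was not among them. The count and the median under that scaling are therefore not given. The value of -0.21 came from scaling to the FPKM sum without genes over 10000 FPKM, which moves all genes down by 0.11. Under that scaling 7 members changed sign (Tlr4, Traf3, Myd88, Tirap, Irak4, Nfkbie and Nfkbiz), all within 0.09 of 0 before it. Scaling to the upper quartile or to Actb changed the sign of Tlr4 and Traf3 only. Under the alternatives run, Nfkb1 ranged from -1.28 to -1.12. Each member has 1 row, so summing rows changed nothing. The lack of replicates limits every value. The authors give read totals per library, but the number of reads behind each value is unknown, and genes near 0 cannot be read.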
